A study of Mus musculus with 6 samples.

Results

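The 10 apolipoprotein genes that mouse liver is known for were followed here: Apoa1, Apoa2, Apoa4, Apoa5, Apob, Apoc1, Apoc2, Apoc3, Apoe and Apom. The list was made by gene name, with earlier results of these data known, and holds 10 of the 55487 genes in the count table. Bulk liver RNA-seq was available for 3 mice given GalNAc-siNC and 3 mice given GalNAc-siRnf10, the conjugate that the paper calls GalNAc-siRnf10-2. All 6 were wild-type male C57BL/6J mice on a normal chow diet, were injected subcutaneously, carried the same batch label and were 17 weeks old when the liver was taken. Each mouse gave 1 library. GalNAc is a sugar ligand that the asialoglycoprotein receptor of hepatocytes takes up, siNC is a control siRNA on that ligand, and siRnf10 is directed against the mRNA of Rnf10, an E3 ubiquitin ligase. The comparison asks how hepatic apolipoprotein mRNA differed after Rnf10 silencing in mice without a steatogenic diet. No untreated mice were analysed here, so both groups share the ligand and the injections.

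Apolipoproteins coat the lipid particles of plasma, give them their structure and direct them to enzymes and receptors. The liver builds very-low-density lipoprotein (VLDL) around apolipoprotein B, releases apolipoproteins A-I and A-II that form high-density lipoprotein (HDL), and adds the small exchangeable C apolipoproteins and apolipoprotein E, which tune lipolysis and uptake of the particles. Hepatocytes are a main source of these mRNAs, and the intestine makes several of them as well.

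Of the 10 genes, 7 lie in 2 clusters (GRCm38). Apoa1, Apoc3, Apoa4 and Apoa5 lie within chr9:46228580-46271919, with Apoc3 on the minus strand and the other three on the plus strand. Apoc2, Apoc1 and Apoe lie on the minus strand within chr7:19671579-19699188. Apoa2 is at chr1:171225054-171226379 (plus strand), Apob at chr12:7977648-8016835 (plus strand) and Apom at chr17:35128997-35132050 (minus strand). RefSeq promoter sequences (GRCm38.p6) were on hand for 8 of the 10 genes. In 4 of the 8, the RefSeq and GENCODE starts are the same base. The 250 bases before the start of those 4 are shown 5′ to 3′ on the gene's strand, because they are the promoters of 1 gene of the chromosome 9 cluster, 2 genes of the chromosome 7 cluster and 1 single gene whose mRNAs are compared next. Capitals mark matches to 4 motifs searched on both strands: TATAAA (the TATA box), CAAAGTCCA (an element bound by the nuclear receptor HNF4A), AGGTCA (a nuclear receptor half-site) and CCAAT (the CCAAT box), which reads ATTGG on the other strand.
Apoa2, chr1:171224804-171225053, plus strand: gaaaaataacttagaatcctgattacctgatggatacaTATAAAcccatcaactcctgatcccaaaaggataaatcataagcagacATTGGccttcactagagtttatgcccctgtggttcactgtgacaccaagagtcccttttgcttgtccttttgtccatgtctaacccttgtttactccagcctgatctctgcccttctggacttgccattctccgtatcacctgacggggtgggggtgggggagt
Apoa5, chr9:46268383-46268632, plus strand: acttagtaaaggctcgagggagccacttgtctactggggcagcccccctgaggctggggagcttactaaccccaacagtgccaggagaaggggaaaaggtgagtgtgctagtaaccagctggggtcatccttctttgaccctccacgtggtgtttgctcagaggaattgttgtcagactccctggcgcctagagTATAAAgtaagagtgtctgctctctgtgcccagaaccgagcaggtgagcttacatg
Apoc2, chr7:19677942-19678191, minus strand: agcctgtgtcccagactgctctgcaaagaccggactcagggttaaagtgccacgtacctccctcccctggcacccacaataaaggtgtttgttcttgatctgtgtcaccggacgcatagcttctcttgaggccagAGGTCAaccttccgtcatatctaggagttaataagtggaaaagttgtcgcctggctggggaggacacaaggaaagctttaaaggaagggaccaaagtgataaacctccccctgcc
Apoe, chr7:19699189-19699438, minus strand: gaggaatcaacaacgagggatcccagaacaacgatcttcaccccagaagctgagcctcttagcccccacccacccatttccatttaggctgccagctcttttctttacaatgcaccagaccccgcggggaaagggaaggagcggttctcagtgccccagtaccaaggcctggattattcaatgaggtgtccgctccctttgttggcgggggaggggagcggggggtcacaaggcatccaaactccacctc
In windows from 250 bases before to 50 bases after the start, TATAAA was found in 3 of the 8 genes, first base 212 bases before the start in Apoa2, 56 in Apoa5 and 60 in Apob. It occurs in 13.6% of 32851 such windows of the RefSeq table. CCAAT was found in 1 of the 8 (Apoa2; 37.4% of all windows), AGGTCA in 1 of the 8 (Apoc2; 16.3%) and CAAAGTCCA in 0 of the 8 (0.475%). These are matches of letters only.

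Total counts were between 26854377 and 33058645 per library, and 3 counts, taken as the limit of detection, were at most 1.12e-05% of a library, a limit that covers counting error only. Rnf10 had 3869, 4536 and 4040 normalized counts in the GalNAc-siNC mice and 1738, 1820 and 1793 in the GalNAc-siRnf10 mice, which was a log2 fold change of -1.22 (SE 0.07, edgeR adjusted p = 3.29e-09). The exact permutation test, two-sided, gave p = 0.1 here, and 3 mice against 3 cannot give less. Normalized counts are counts scaled by the TMM library sizes to the mean library. Across all genes, 1965 of 14046 tested genes (14.0%) passed an edgeR adjusted p under 0.05, of which 943 rose (6.71% of those tested) and 1022 fell (7.28%). When the libraries were scaled by their total counts alone, 747 rose and 1381 fell. Hepatocyte markers were abundant in every library, at 68962 to 75804 CPM (counts scaled to the library total) summed over the list in GalNAc-siNC mice and 92709 to 94571 in GalNAc-siRnf10 mice. Of the 9 hepatocyte markers tested, 7 rose and 1, Fgb, fell. Alb alone took 3.72% to 4.36% of the counts in GalNAc-siNC mice and 5.93% to 6.08% in GalNAc-siRnf10 mice. In bulk liver, a difference in the number of hepatocytes and a difference in RNA per hepatocyte cannot be told apart.

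The levels of the 10 genes, per kilobase of gene model, ran from rank 11 to rank 9091 of the 24912 genes with a count. Apoe, the ligand of remnant receptors, was the highest with 177758 ± 40083 normalized counts per kilobase (SD, n = 3) in GalNAc-siNC mice and stood at rank 11. Apoa1 followed with 154375 ± 22121 per kilobase and Apoa2 with 152503 ± 32395, at ranks 13 and 14. The ranges of Apoe and Apoa1 overlapped in GalNAc-siNC mice, as did those of Apoa1 and Apoa2. Apoc1 (37286 ± 11262 per kilobase) and Apoc3 (29056 ± 5886) came next, with overlapping ranges. Apob, whose mRNA is the longest of the 10, stood at 12735 ± 1544 per kilobase and rank 119. Apoa5 (7030 ± 1060) and Apom (5367 ± 986) overlapped each other as well, and Apoa4, which the intestine makes in quantity, was at 655 ± 55.4 per kilobase and rank 1539. Apoc2, the activator of lipoprotein lipase, was the lowest at 37.6 ± 5.22 per kilobase and rank 9091. That position is uncertain: 79.5% of the exon bases of Apoc2 also belong to Gm44805, a gene model on the same strand to which the table gives 0 counts in every library. How the counting treated reads shared by both models is not given in the sources used here.

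In GalNAc-siRnf10 mice 8 of the 10 genes kept their place in the order of levels per kilobase. The exceptions were Apoa2, which stood second with 236661 ± 6946 normalized counts per kilobase, and Apoa1, which came after it with 163665 ± 1396. No neighbours in this order overlapped in GalNAc-siRnf10 mice. Together the 10 genes took 2.67% to 3.37% of all counts in GalNAc-siNC mice and 3.72% to 3.77% in GalNAc-siRnf10 mice.

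**Figure D1:**
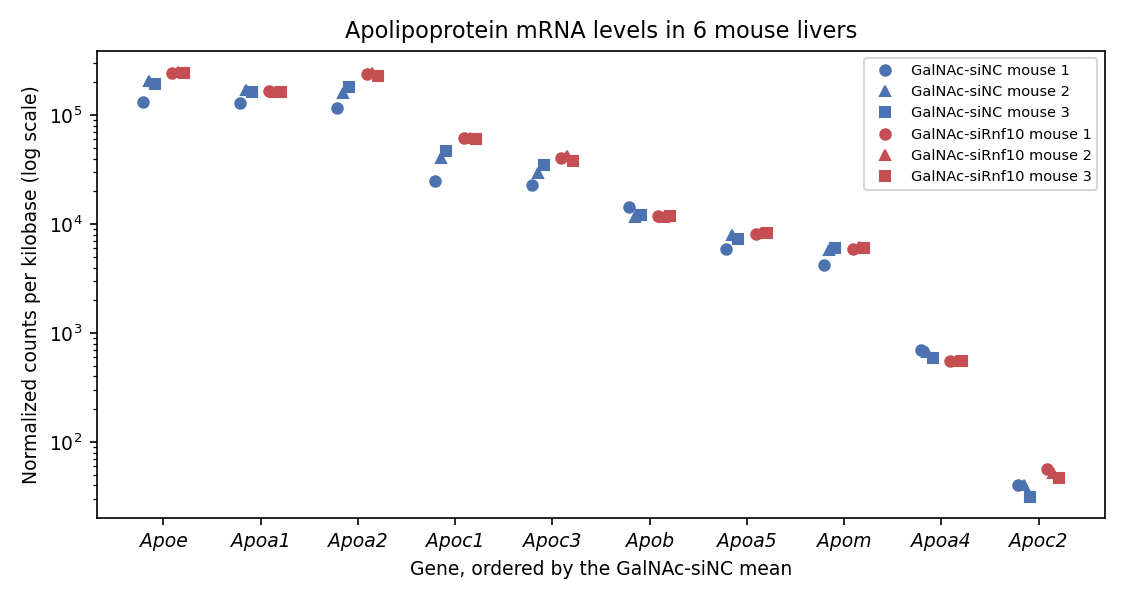
Normalized counts per kilobase of gene model (log scale) of the 10 apolipoprotein genes in each of the 6 mice, with GalNAc-siNC mice in blue and GalNAc-siRnf10 mice in red. Genes are ordered by the GalNAc-siNC mean, from Apoe at 177758 to Apoc2 at 37.6, and the points of GalNAc-siRnf10 mice lie close together in each gene except Apoc2.

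None of the 10 genes passed the edgeR test at an adjusted p under 0.05 (0 of 10, beside 14.0% of all genes tested), although the groups were apart in most of them. In 6 genes (Apoa2, Apoa5, Apoc1, Apoc2, Apoc3 and Apoe) all 3 GalNAc-siRnf10 mice were above all 3 GalNAc-siNC mice, a pattern that 16.5% of all tested genes had. In Apoa4 all 3 were below, as in 16.4% of tested genes. The groups were thus apart in 7 of the 10 genes, beside 32.8% of all tested genes, and overlapped in Apoa1, Apob and Apom. The median log2 fold change of the 10 was 0.35, beside 0.0022 over all tested genes. At an unadjusted p under 0.05, edgeR had 5 of the 10 genes, beside 26.7% of all tested genes. The 10 genes differed in how this came about, as their values in each mouse show.

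Among the genes of HDL, Apoa1 encodes its main structural protein. It had 159594, 210518 and 202312 normalized counts in GalNAc-siNC mice and 203914, 200479 and 202477 in GalNAc-siRnf10 mice. GalNAc-siNC mouse 1 was the lowest of the 6 and the groups overlapped. The log2 fold change was 0.08 (SE 0.10, 95% interval -0.14 to 0.31, edgeR adjusted p = 0.641). Apoa2 encodes the second HDL protein and had 62774, 86120 and 96788 normalized counts in GalNAc-siNC mice and 128521, 129887 and 122853 in GalNAc-siRnf10 mice. The groups did not overlap, and the lowest GalNAc-siRnf10 mouse was above the highest GalNAc-siNC mouse. Its log2 fold change was 0.63 (SE 0.17, 95% interval 0.20 to 1.07, edgeR adjusted p = 0.080), a mean 55.2% higher. Apom, which carries sphingosine-1-phosphate on HDL, had 4290, 5906 and 6114 normalized counts in GalNAc-siNC mice and 6029, 6281 and 6098 in GalNAc-siRnf10 mice. GalNAc-siNC mouse 1 was again the lowest, mouse 3 lay among the GalNAc-siRnf10 mice, and the log2 fold change was 0.18 (SE 0.13, 95% interval -0.12 to 0.47, edgeR adjusted p = 0.442).

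Apoa4 encodes a lipid-binding protein of chylomicrons and HDL that liver releases in fasting and steatosis. It had 1263, 1228 and 1074 normalized counts in GalNAc-siNC mice and 1000, 1001 and 1015 in GalNAc-siRnf10 mice. All GalNAc-siRnf10 mice were below all GalNAc-siNC mice, with GalNAc-siNC mouse 3 the nearest to them. Its log2 fold change was -0.24 (SE 0.08, 95% interval -0.41 to -0.07, edgeR adjusted p = 0.055), and it was the gene of the 10 with the lowest p. Gm47528 and Gm10680, models on the opposite strand, share 34.9% and 34.8% of its exon bases and had at most 13 and 0 counts. The tested genes whose values over the 6 mice were most like those of Apoa4 were Vezf1, Myo5b, Polr2a, Ggcx and Pcsk6, at root mean square distances of 0.022 to 0.031 on the centred log2 scale. Apoa5, a low-abundance plasma protein that promotes triglyceride hydrolysis, had 14812, 20058 and 18321 normalized counts in GalNAc-siNC mice and 20631, 21053 and 20704 in GalNAc-siRnf10 mice. The groups did not overlap, but GalNAc-siNC mouse 2 was close to the GalNAc-siRnf10 mice and mouse 1 was far below. The log2 fold change of Apoa5 was 0.23 (SE 0.10, 95% interval 0.02 to 0.45, edgeR adjusted p = 0.158).

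Of the C apolipoproteins, Apoc1 encodes an inhibitor of lipoprotein uptake. Its normalized counts were 18442, 30076 and 34704 in GalNAc-siNC mice and 45723, 45988 and 44724 in GalNAc-siRnf10 mice. This was the largest estimate of the 10, with a log2 fold change of 0.71 (SE 0.26, 95% interval 0.02 to 1.40, edgeR adjusted p = 0.176), and also the widest spread in the control group, where mouse 1 was 0.569 times the mean of mice 2 and 3. Apoc3, the inhibitor of lipoprotein lipase and of remnant uptake, had 23183, 30144 and 35061 normalized counts in GalNAc-siNC mice and 41049, 42381 and 38834 in GalNAc-siRnf10 mice. The groups did not overlap, and the log2 fold change was 0.47 (SE 0.16, 95% interval 0.07 to 0.87, edgeR adjusted p = 0.132). Apoc2 was counted in only 26 to 44 reads per library, which is 33.1, 33.0 and 25.7 normalized counts in GalNAc-siNC mice and 46.3, 42.1 and 38.3 in GalNAc-siRnf10 mice. The groups did not overlap, yet at this depth the 95% interval of its log2 fold change of 0.46 ran from -0.13 to 1.06 (SE 0.28, edgeR adjusted p = 0.319).

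Apoe had 282501, 443238 and 414400 normalized counts in GalNAc-siNC mice and 518243, 532756 and 518413 in GalNAc-siRnf10 mice. The GalNAc-siRnf10 mice were within a coefficient of variation (CV) of 1.59%, whereas the GalNAc-siNC mice had a CV of 22.5%. The log2 fold change was 0.46 (SE 0.18, 95% interval -0.02 to 0.95, edgeR adjusted p = 0.206). Apob, which encodes the scaffold of VLDL, had 201895, 161447 and 168994 normalized counts in GalNAc-siNC mice and 165290, 161335 and 165125 in GalNAc-siRnf10 mice. Here GalNAc-siNC mouse 1 was the highest of the 6 and mice 2 and 3 were level with the GalNAc-siRnf10 mice. The log2 fold change of Apob was -0.11 (SE 0.07, 95% interval -0.27 to 0.04, edgeR adjusted p = 0.333). By the exact two-sided permutation test, p was 0.1 for the 7 genes whose groups did not overlap, 0.3 for Apom, 0.4 for Apob and 0.8 for Apoa1.

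**Figure D2:**
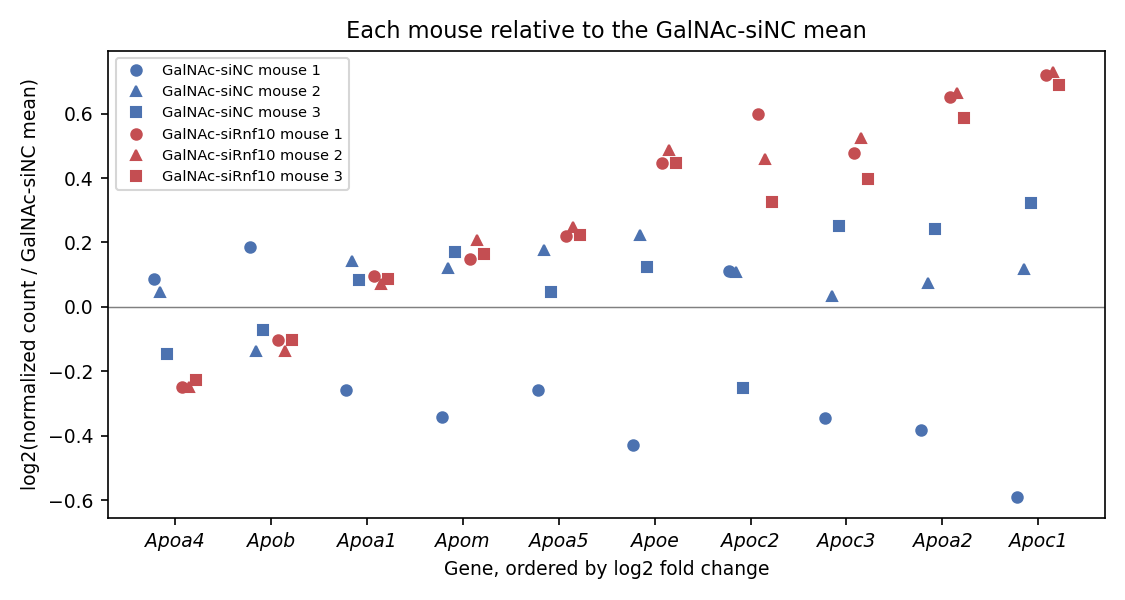
Normalized count of each gene in each mouse as log2 of its ratio to the GalNAc-siNC mean, with genes ordered by their log2 fold change from Apoa4 at -0.24 to Apoc1 at 0.71. GalNAc-siNC mouse 1 (blue circle) is the lowest point in 7 of the 10 genes and the highest in Apob and Apoa4.

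GalNAc-siNC mouse 1 stood apart from the other control mice in most of these genes. It was the lowest of the 6 mice in 7 of the 10 genes and the highest in 2. Relative to the mean of GalNAc-siNC mice 2 and 3, it had 0.569 times their Apoc1, 0.659 times their Apoe and 0.686 times their Apoa2, but 1.22 times their Apob. The ratio was 0.711 for Apoc3, 0.714 for Apom, 0.773 for Apoa1, 0.772 for Apoa5, 1.10 for Apoa4 and 1.13 for Apoc2. The longest protein-coding transcripts of Apoa2, Apoc1, Apoc3 and Apoc2 have 518, 532, 709 and 727 bases. Those of Apom, Apoa1 and Apoe have 1013, 1035 and 1408, those of Apoa4 and Apoa5 have 1815 and 2515, and that of Apob has 13934. The ratio of Apoc2 is uncertain, as it rests on 38, 32 and 26 counts in the GalNAc-siNC mice. Apart from Apoc2, the ratio was below 1 in every gene up to 1408 bases and in Apoa5, and above 1 in Apoa4 and Apob. Across liver mRNAs it moved with length: over 429 protein-coding genes with transcripts under 1 kb, the median log2 ratio of GalNAc-siNC mouse 1 to the other control mice was -0.48, over 1776 genes of 1 to 2 kb it was -0.16, and over 3197 genes of 4 kb or more it was 0.097. Under 1 kb, GalNAc-siNC mice 2 and 3, each against the others of the group, had medians of 0.11 and 0.32. For each GalNAc-siRnf10 mouse against the others of its group, this median was between -0.05 and 0.03 in every length class. In the comparison of the groups, the median log2 fold change was 0.30 under 1 kb and -0.05 at 4 kb or more. What this length pattern contributed to the apolipoprotein differences was not tested beyond the fits without mouse 1 and with a length correction. That correction used gene model length, whereas the pattern above is by transcript length, so it need not remove the pattern. Gene model and transcript have 2138 and 1408 bases for Apoe, and 744 and 532 for Apoc1. The GalNAc-siNC CV, 8.47% to 30.2%, was larger than the GalNAc-siRnf10 CV, 0.817% to 9.48%, in 10 of the 10 genes, beside 66.1% of all tested genes.

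**Figure D3:**
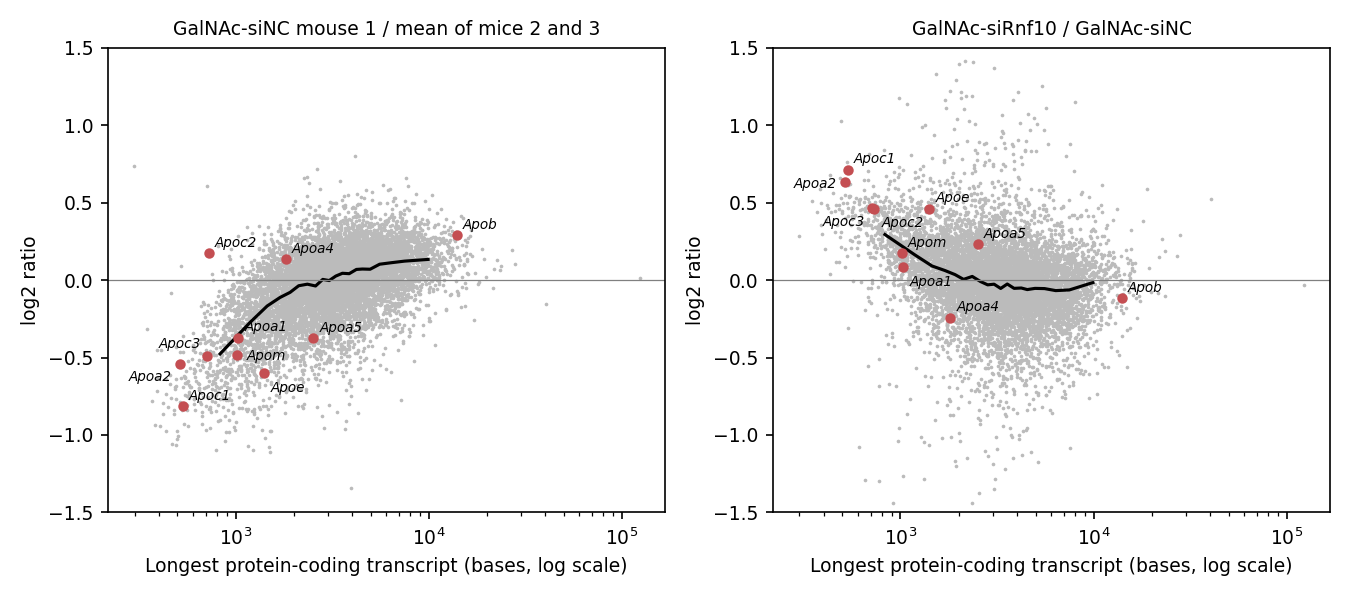
Log2 ratios of 8985 protein-coding genes with at least 100 normalized counts in every mouse, against the length of their longest protein-coding transcript (log scale). The ratios are GalNAc-siNC mouse 1 over the mean of mice 2 and 3 (left) and GalNAc-siRnf10 over GalNAc-siNC mice (right). Red points are the 10 apolipoprotein genes, with Apoc2 shown although it is under that minimum, the black line joins medians of bins with equal gene numbers, and 1 and 11 genes lie outside the axes; the line rises with length on the left and falls on the right.

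The fit without GalNAc-siNC mouse 1 gave smaller differences with smaller standard errors for each of the 10 genes except Apoc2. The controls of this fit were GalNAc-siNC mice 2 and 3 only. The spread that mouse 1 brought is therefore absent from its standard errors and p-values, which do not show greater certainty. Apoa2 then had a log2 fold change of 0.47 (SE 0.04, edgeR adjusted p = 8.36e-12) and Apoc1 of 0.49 (SE 0.04, edgeR adjusted p = 3.62e-11). Apoc3 had 0.32 (SE 0.05, edgeR adjusted p = 1.79e-05) and Apoe 0.29 (SE 0.03, edgeR adjusted p = 2.25e-08). These 4 were called higher, beside 9.73% of genes tested in that fit. Apoa4 (-0.20), Apoa5 (0.11), Apom (0.03) and Apob (-0.01) moved toward 0, and Apoa1 changed sign, to -0.03. Apoc2 had 0.52 (SE 0.34). The fit corrected for GC content and gene length in all 6 mice called Apoa2 (log2 fold change 0.44), Apoc3 (0.39), Apoe (0.51) and Apoa5 (0.28) higher, beside 9.15% of genes. Their edgeR adjusted p was 0.011, 0.020, 0.036 and 0.00082. The correction was estimated from these same counts and then taken as known, so these smaller p-values do not by themselves show greater certainty. DESeq2 on the 6 mice as they were called Apoa2, Apoc1, Apoc3 and Apoe higher (adjusted p = 1.97e-06, 0.037, 0.00071 and 0.0022), beside 6.79% of genes. Apoa2, Apoc3 and Apoe were called higher in each of these 3 fits, which reuse the same mice. Over the 16 alternative fits, Apoa2 and Apoc3 were called in 5 each and Apoe in 4. None of the 10 was called when GalNAc-siRnf10 mouse 1, 2 or 3 was left out (beside 7.27%, 7.84% and 7.78% of genes).

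The remaining fits bore on Apoa4 and Apoa5. Without GalNAc-siNC mouse 3, Apoa4 was called lower (-0.31, edgeR adjusted p = 0.020, beside 6.29% of genes), while Apoa2, Apoc1 and Apoc3 were called higher (beside 6.91%). Without GalNAc-siNC mouse 2, Apoa5 was the 1 gene called (0.33, edgeR adjusted p = 0.023, beside 5.56% called higher). Apoa5 was also called higher by limma voom (7.83% of genes), with the replicate block (6.37%) and without a filter on low counts (4.69%). Apoa4 was called lower without that filter (4.64%), with upper quartile factors (7.76%) and with total-count scaling (9.83%). With GC content, length and the replicate block in 1 fit, Apoa2, Apoa5, Apoc3 and Apoe were called higher (8.88%). None was called with RLE size factors (14.0%), with at least 10 counts in every mouse (15.2%) or at an adjusted p under 0.01 (7.42%).

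**Figure D4:**
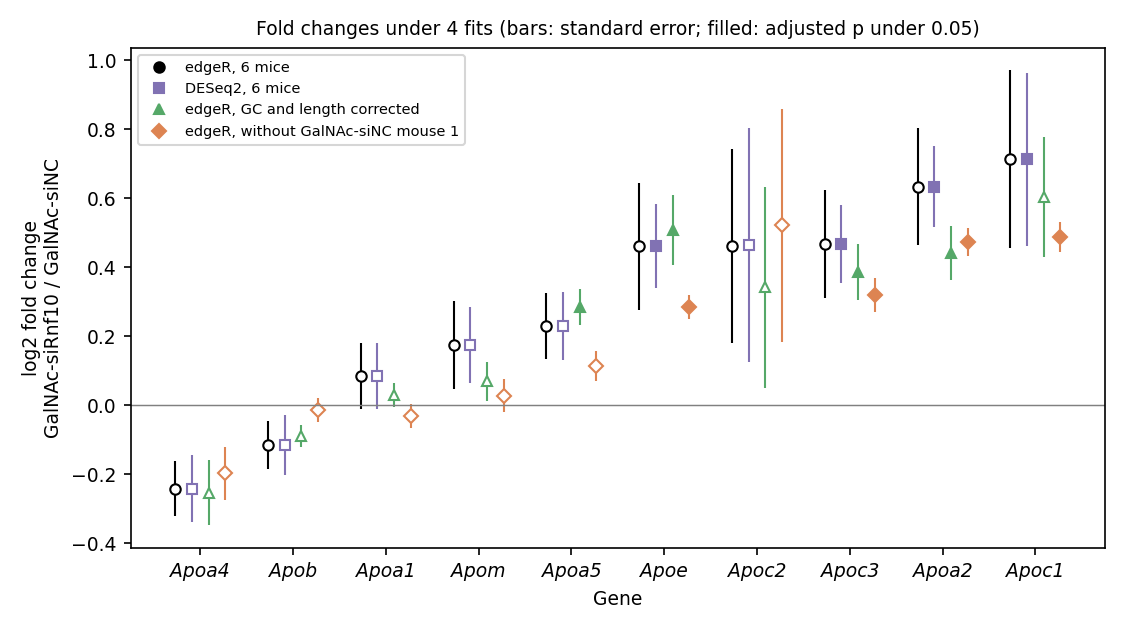
Log2 fold change with its standard error for each apolipoprotein gene in 4 fits, where filled symbols have an adjusted p under 0.05. Apoa2, Apoc3 and Apoe are filled in the DESeq2 fit, in the fit corrected for GC content and length and in the fit without GalNAc-siNC mouse 1, and open in the edgeR fit of the 6 mice. Over all 16 alternative fits they were called in 5, 5 and 4.

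Ratios between apolipoprotein mRNAs within a mouse do not depend on the scaling of the library. These pairs were chosen after their values were seen. The length pattern can remain in them, as the first gene of each pair has the shorter transcript. What length contributed to the ratios was not tested. The Apoa2 to Apoa1 ratio, per kilobase, was 0.905, 0.942 and 1.10 in GalNAc-siNC mice and 1.45, 1.49 and 1.40 in GalNAc-siRnf10 mice. All 3 GalNAc-siRnf10 mice were above the GalNAc-siNC mice, of which mouse 1 lay close to mouse 2. The Apoc3 to Apoa1 ratio of the chromosome 9 cluster was 0.177, 0.175 and 0.211 in GalNAc-siNC mice and 0.245, 0.258 and 0.234 in GalNAc-siRnf10 mice. In the same cluster, the Apoc3 to Apoa5 ratio overlapped between groups, at 3.89, 3.74 and 4.76 against 4.95, 5.01 and 4.67 (exact permutation test, two-sided p = 0.2). Apoc1 to Apoe, of the chromosome 7 cluster, was 0.188, 0.195 and 0.241 against 0.254, 0.248 and 0.248. Apart from Apoc3 to Apoa5, these ratios did not overlap between groups, and the exact two-sided permutation test gave the smallest p it can, 0.1.

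Apoc4, the fourth gene of the chromosome 7 cluster, had 4592, 6525 and 7594 normalized counts in GalNAc-siNC mice and 9535, 10144 and 8961 in GalNAc-siRnf10 mice. The groups did not overlap, and its log2 fold change of 0.61 did not pass the test (SE 0.20, edgeR adjusted p = 0.126). It was called higher by DESeq2 (adjusted p = 0.028), without GalNAc-siNC mouse 1 (0.43, edgeR adjusted p = 4.23e-07) and without GalNAc-siNC mouse 3 (0.78, edgeR adjusted p = 0.010). The p-value without mouse 1 lacks the spread that mouse 1 brought. Apoc4 was not called with the GC and length correction (0.56, edgeR adjusted p = 0.185) or without GalNAc-siNC mouse 2 (0.65, edgeR adjusted p = 0.273). Of the 32 protein-coding genes tested within 100 kb of an apolipoprotein gene, 7 rose and 0 fell by edgeR (beside 6.71% and 7.28% of all tested genes), with 11 of the 32 at an unadjusted p under 0.05 (beside 26.7%). By locus these were 3 of 3 genes tested near the chromosome 9 cluster, 4 of 10 near Apoa2, 0 of 8 near the chromosome 7 cluster and 0 of 11 near Apom. The 3 on chromosome 9 were Zpr1 (log2 fold change 0.55), Bud13 (0.89) and 4931429L15Rik (3.20, from a mean of 3.11 to 30.2 normalized counts), all on the Apoa5 side. Near Apoa2 they included Sdhc (0.22), Nr1i3 (0.63) and Tomm40l (0.83), and the last pair overlap on opposite strands, so their counts are uncertain.

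Among the other apolipoproteins and the genes that process, clear and regulate apolipoproteins, 36 of 106 passed the test (34.0%, beside 14.0% of all tested genes), of which 14 rose and 22 fell. The lists were chosen with earlier results of these data known, so these shares are a description and not a test of the lists. The median log2 fold change over the 106 was -0.05. Of these 36 genes, 36 were called without GalNAc-siNC mouse 1 and 30 with the GC and length correction, and 23 were called in all 16 alternative fits.

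Of 11 other apolipoproteins tested, 3 rose and 3 fell. Apoh, a phospholipid-binding plasma protein, rose by a log2 fold change of 0.18 (edgeR adjusted p = 0.021), the mitochondrial Apoo by 0.42 (adjusted p = 0.033) and Apol7a by 0.37 (adjusted p = 0.00043). The calls of Apoh and Apoo were each lost in 6 of the 16 alternative fits, among them the GC and length correction (0.05 and 0.23). Apon had 18947 ± 773 normalized counts in GalNAc-siNC mice and 14343 ± 68.5 in GalNAc-siRnf10 mice (log2 fold change -0.40). Clu, which encodes apolipoprotein J, fell from 79910 ± 5812 to 62091 ± 851 (-0.36) and Apol10b from 86.5 ± 0.807 to 39.2 ± 8.29 (-1.14). Reads of the Apol genes may be shared between near-identical family members, so their values are uncertain.

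The genes of VLDL assembly and Apob mRNA editing held no gene that rose. Mttp, the transfer protein that lipidates apolipoprotein B, had 9374 ± 416 normalized counts in GalNAc-siNC mice and 8948 ± 159 in GalNAc-siRnf10 mice (log2 fold change -0.07, 95% interval -0.19 to 0.05, edgeR adjusted p = 0.486). Of the 18 assembly genes, 4 fell: P4hb, the partner subunit of Mttp (-0.23), the sorting receptor gene Sort1 (-0.33), the coat protein gene Sec24d (-0.39) and the endoplasmic reticulum chaperone Dnajb11 (-0.39). Of the 5 editing genes, Rbm47, a cofactor of the cytidine deaminase, fell from 2119 ± 70.9 to 1659 ± 103 normalized counts (-0.35, adjusted p = 0.0025).

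Receptors and clearance genes had 6 of 14 genes that fell and 0 that rose, with a median log2 fold change of -0.22. Lrp1, a remnant receptor that binds apolipoprotein E, fell from 34014 ± 3052 to 23071 ± 164 normalized counts (-0.56, edgeR adjusted p = 5.51e-06). The lipolysis-stimulated receptor gene Lsr (-0.47) and Ndst1 (-0.31) and Xylt2 (-0.36), the latter pair enzymes of heparan sulfate synthesis, also fell. The call of Xylt2 was lost in 5 of the 16 alternative fits. With the GC and length correction, Ndst1 was still called at -0.18 and Xylt2, at -0.23, was not.

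Of 14 HDL genes, 4 rose and 2 fell. Lipg, endothelial lipase, rose from 410 ± 26.0 to 754 ± 76.2 normalized counts (0.88), and the HDL-borne Pon1 (0.37) and Pon3 (0.24) and the sterol exporter subunit Abcg5 (0.36) rose as well. Scarb1, the HDL receptor gene, fell from 5007 ± 384 to 3580 ± 136 (-0.48) and Abca1, which loads lipid onto apolipoprotein A-I, fell by 0.22 on the log2 scale (edgeR adjusted p = 0.033). Lcat, which esterifies HDL cholesterol, had a log2 fold change of -0.15 and did not pass (adjusted p = 0.076). It was called lower with total-count scaling (adjusted p = 0.023), limma voom (0.028), the GC and length correction without and with the block (0.0033 and 0.0034) and without GalNAc-siNC mouse 1 (0.0050). Of 10 lipolysis genes, 4 rose, among them Lpl (0.65), its endothelial anchor Gpihbp1 (0.57) and the lipase inhibitor Angptl4 (0.43). Pcsk6, a convertase, fell (-0.24). The calls were lost in 8 of the 16 alternative fits for Pon3, 5 for Pcsk6, 4 for Abca1, 3 for Gpihbp1 and 1 for Abcg5. With the GC and length correction the log2 fold change of Pcsk6 was -0.11 (edgeR adjusted p = 0.193).

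Of 35 transcriptional regulators tested, 3 rose and 5 fell. Hnf4a, a nuclear receptor that binds many apolipoprotein promoters, had 13741 ± 411 normalized counts in GalNAc-siNC mice and 14532 ± 198 in GalNAc-siRnf10 mice (log2 fold change 0.08, 95% interval -0.03 to 0.19, edgeR adjusted p = 0.352). With the GC and length correction it was called higher (0.17, edgeR adjusted p = 0.0032), as it was with that correction and the block (0.17, edgeR adjusted p = 0.0077). The 5 regulators with the lowest p were the pioneer factor gene Foxa1 (-0.81) and Srebf2 (-0.58), which fell, the clock repressor Nr1d1 (-0.68), which also fell, and Nr0b2 (0.81) and Foxo1 (0.57), which rose. Nr0b2 encodes the corepressor SHP, Srebf2 the sterol-responsive factor SREBP2, and Foxo1 an insulin-inhibited activator of Apoc3 and Mttp.

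**Figure D5:**
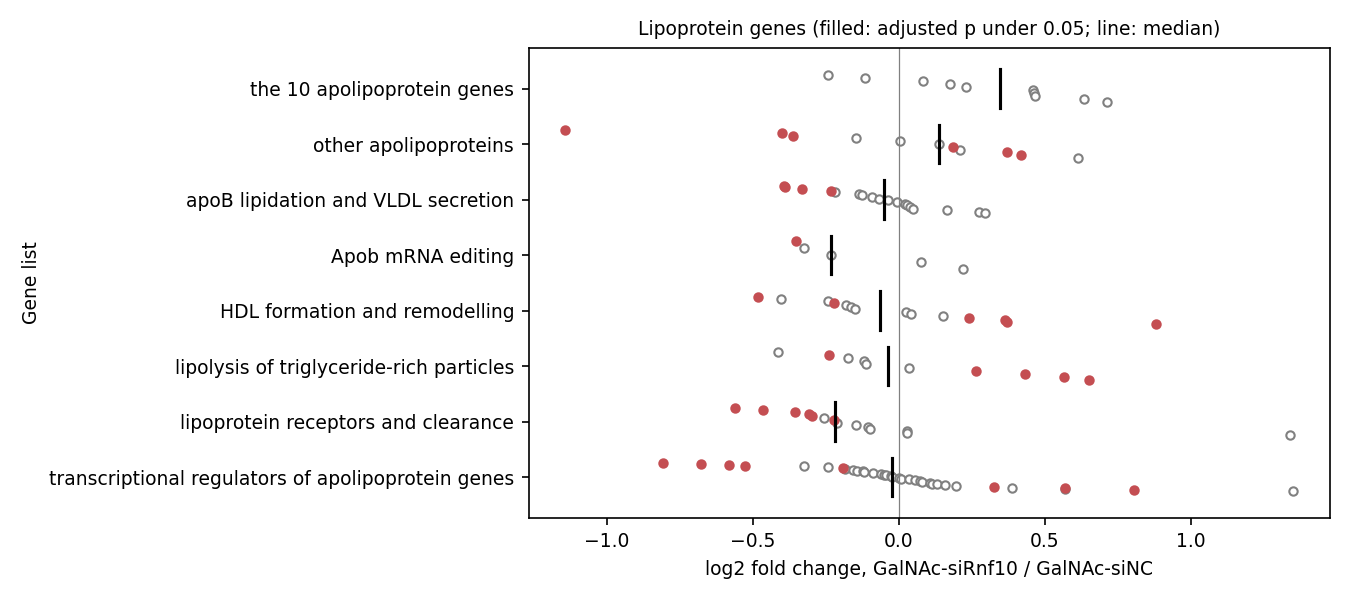
Log2 fold change of each tested gene in the 8 lists of lipoprotein genes, with filled points at an edgeR adjusted p under 0.05 and a black line at the median of each list. The 10 apolipoprotein genes have a median of 0.35 with no filled point, and the receptor and clearance list has a median of -0.22 with 6 filled points, each below 0.

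Markers of other cells were given as measured beside the apolipoproteins, and their part in the differences was not tested. Of 12 Kupffer cell and macrophage markers, cells that also express Apoe, 1 rose, and their sum was 258 to 311 CPM in GalNAc-siNC mice and 277 to 288 in GalNAc-siRnf10 mice. Of 8 sinusoidal endothelial markers and of 9 stellate cell markers, 2 rose in each list, with sums of 105 to 109 against 104 to 113 CPM and of 124 to 131 against 140 to 142 CPM. Of 5 cholangiocyte markers tested, 1 fell (27.0 to 33.5 against 18.1 to 22.3 CPM for the list). Of 8 blood cell markers tested, 1 fell (276 to 343 against 297 to 325 CPM). For the intestine, which makes Apoa4, Apob and Apoc3, the enterocyte marker Fabp2 rose, whereas the defining markers Vil1, Sis, Lct, Alpi and Cdh17 had at most 16 counts in any library. Of the pancreatic and adipose markers, those too low to test had at most 2 counts.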

How the data were processed

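Liver RNA-seq of 6 mice was used (3 GalNAc-siNC and 3 GalNAc-siRnf10, grouped by their labels). Libraries were stranded and read from both ends. The authors aligned the reads to GRCm38 (HISAT2) and deposited raw, unscaled counts for each gene. The deposited table also gives the gene model length in bases, an other value used per kilobase. The counting tool, its strand setting and the annotation release are not given in the sources used here. Total counts were 26854377 to 33058645 per library.

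Symbols, transcripts and coordinates came from GENCODE M21, and 55227 of 55487 identifiers matched. The test was that of edgeR 4.0.16 in R 4.3.3, with filterByExpr, TMM, a robust quasi-likelihood F-test with treatment as the only term, and Benjamini-Hochberg adjustment over all 14046 tested genes. A call is an adjusted p under 0.05. The edgeR p-values set the difference between the groups against the spread between these mice, which is estimated with help from all tested genes. Single genes also had an exact two-sided permutation test. Alternatives were RLE, upper quartile and total-count scaling, no filter on low counts, a minimum of 10 counts in each library, limma 3.58.1 voom with quality weights, DESeq2 1.42.0, the replicate block, splines (5 degrees of freedom each) for GC content and length, with and without the block, an adjusted p under 0.01 and leaving out each mouse. The length in the correction was the gene model length. The edgeR fit was also run on simulated counts with known changes. That simulation gave both groups the same spread, with no mouse that stood apart and no length pattern, so it does not cover those features of the data. Figures were drawn with Python 3.11.15 and matplotlib 3.10.9.

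The 10 genes and the gene lists were chosen with earlier results of these data known. Named are the 10 genes, Rnf10, up to 5 called genes per list with the lowest p, Mttp, Hnf4a, Lcat, Abca1 and Apoc4, and the 5 genes of at least 50 normalized counts most like the one of the 10 with the lowest p. Apoo, Pon3, the called neighbours, the ratios and single markers were named after their values were seen. Some genes that this rule names are not reported here. Sequences are from RefSeq (GRCm38.p6).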

Additional observations from a re-analysis of the deposited data

How the results depend on the processing

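None of the 10 apolipoprotein genes (0) was called by edgeR with RLE size factors, with at least 10 counts in every mouse or at an adjusted p under 0.01. Other settings called 1 gene with upper quartile factors or total counts (Apoa4, lower), 1 with limma voom or the replicate block (Apoa5, higher), 2 without the filter (Apoa5 higher, Apoa4 lower), and 4 with DESeq2, with the GC and length correction, and with that correction and the replicate block. Leaving out 1 mouse gave 0 to 4. Of 160 fold changes of single genes, 132 stayed on the same side of the threshold with the same sign, 27 passed it, and 1 reversed, that of Apoa1, which ran from -0.031 (without GalNAc-siNC mouse 1) to 0.16 when 1 mouse was left out. Over all tested genes, 1053 to 2864 were called when 1 mouse was left out, 1053 without GalNAc-siRnf10 mouse 1 and 1128 without mouse 2 or mouse 3, and 1042 at an adjusted p under 0.01. The replicate block gave 1816. Among the 106 tested genes of the lipoprotein lists, the number called (36 with all mice) ran from 23 (without GalNAc-siRnf10 mouse 1) to 58 (without GalNAc-siNC mouse 1). Among the tested neighbours, the number called (7 of 32 with all mice) ran from 5 to 12, the latter without GalNAc-siNC mouse 1 (8 higher and 4 lower of 33), in alternatives chosen after seeing the data. The log2 fold change of Rnf10 ran from -1.27 to -1.07. The order of levels was unchanged for 10 of 10 genes with transcript length. The replicate numbers are only labels of different mice: same-numbered mice deviated with correlations of -0.0026, 0.023 and -0.033, and not every mouse correlated best with its own number. Apoc2, at 26 to 44 counts per library, has the lowest depth of the 10 genes.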
